A study of Mus musculus with 56 samples.

Results

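Collagen genes were chosen by symbol, as every listed gene whose name has the form of a collagen chain (Col, a type number, the letter a and a chain number). This gave 44 of the 53819 genes listed for cancer-associated fibroblasts (CAFs) and tumor cells, and the same 44 symbols among the 55453 and 53819 genes listed for the CD8+ T cell libraries. The cells were sorted from orthotopic rectal tumors of MC38-luc, a luciferase-expressing mouse colon carcinoma line, in female C57BL6 mice. Short course radiotherapy (SCRT) was given on days 9 to 13 in 5 fractions of 5 Gy, and every tumor was harvested on day 14. CAFs (CD45-, CD31-, Podoplanin+, PDGFRa+, Ly6c+) came from 5 untreated and 10 SCRT tumors, tumor cells (GFP+) likewise from 5 untreated and 10 SCRT tumors, and CD8+ T cells (CD45+ CD8+) from a separate set of 5 untreated and 10 SCRT tumors. The paper names the sequenced tumor cells MC38-GFP and adds GFP- to the CAF gate. Another 5 CD8+ T cell libraries were labelled SCRT with IgG and 6 were labelled SCRT with anti-IFNAR, an antibody against the type I interferon receptor. The paper's figure legend gives these sizes the other way round, as 6 for IgG and 5 for anti-IFNAR.

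Collagens are trimers of chains that carry long glycine-rich repeats. Fibrillar collagens (types I, II, III, V, XI, XXIV and XXVII) build the cross-striated fibers that fibroblasts lay down in stroma and scar, type IV collagens form the sheet-like network of basement membranes, and the remaining types make beaded filaments, decorate fibrils, anchor epithelium or sit in the plasma membrane. In tumors, activated fibroblasts are the best known source of fibrillar and type VI collagen.

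The value used for each gene is the authors' mean normalized count, which is the count of reads divided by a size factor for each library and averaged over all libraries of a statistical fit. The CAF and tumor cell libraries shared a fit, the untreated and SCRT CD8+ T cells had their own (the CD8 T cell fit), and the IgG and anti-IFNAR CD8+ T cells a further one (the anti-IFNAR fit). A mean therefore covers CAFs and tumor cells together, and treated and untreated tumors together. No value per library or per group was used here, so the means have no SD, no difference between treated and untreated cells was computed, and CAFs and tumor cells cannot be told apart. In bulk RNA, fewer cells of a type and less RNA per cell cannot be told apart either.

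The cell sorts were read from markers. In the CAF and tumor cell fit the 5 CAF markers had means of 2633 to 34804 and the 3 CD8 T cell markers 1.06 to 5.74. In the CD8 T cell fit the T cell markers had means of 24298 to 46970 and the CAF markers 21.5 to 283. The anti-IFNAR fit gave 4660 to 8470 for the T cell markers and 5.31 to 135 for the CAF markers. Ptprc, which encodes CD45, had a mean of 50.4 in the CAF and tumor cell fit against 54999 in the CD8 T cell fit.

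Collagens were abundant in the CAF and tumor cell fit, where 27 of 44 genes (61.4%) reached a mean of 10, the minimum used here, against 26.6% of all genes listed. Together the 44 genes held 1.78% of the summed mean of all genes. Col3a1, the chain of type III collagen, had a mean of 208379 and ranked 1 among all genes in this fit, with 0.753% of the summed mean. Col6a1, Col6a2 and Col1a1 ranked 15, 29 and 36 among all genes. The values nearest the minimum were those of Col15a1 at 11.1 and Col8a2 at 7.95. Col9a1, a chain of cartilage collagen IX, was listed at 0 in every fit.

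**Figure D1:**
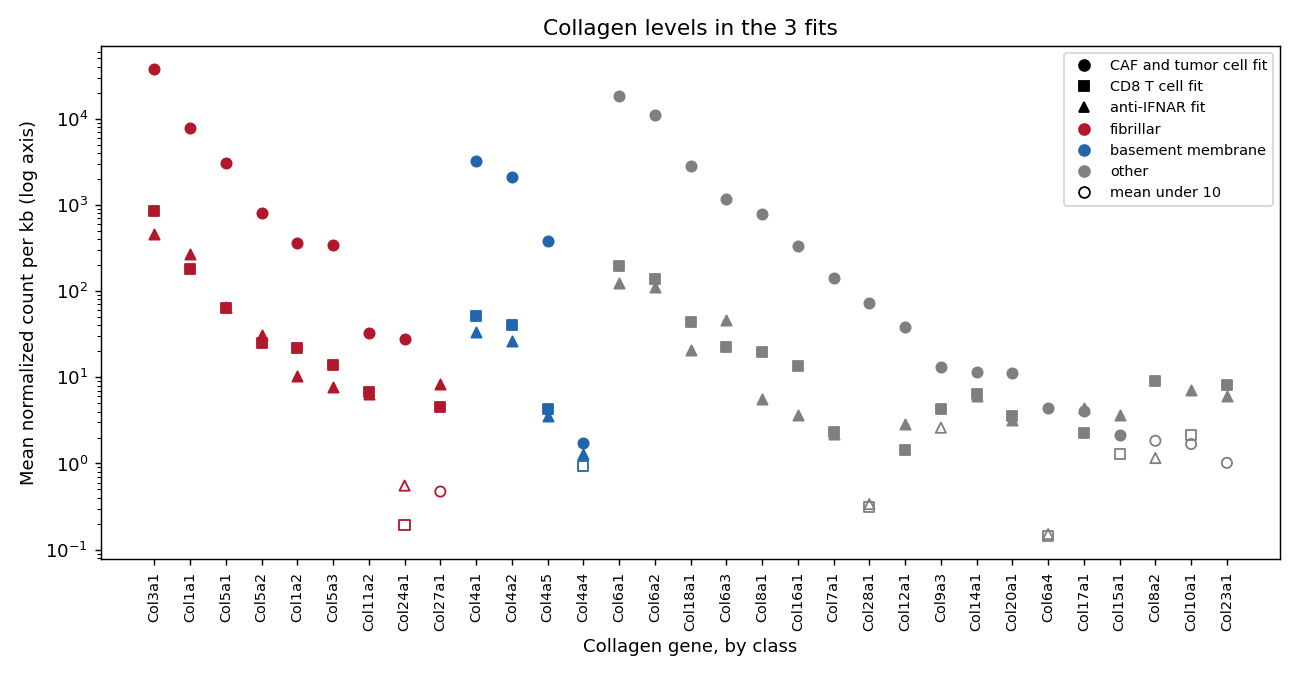
Mean normalized count per kb of transcript (log axis) for the 31 collagens that reached a mean of 10 in at least 1 fit, by class, with a marker for each fit and open markers for means under 10. Fits were scaled separately, so heights are to be compared within a fit. Col3a1 is highest in each, and fibrillar, type IV and type VI leaders and Col18a1 make up the same 10 highest genes in each.

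Levels of different genes were compared per kb of the longest annotated transcript. Of the 11 fibrillar genes, 8 reached the minimum in the CAF and tumor cell fit, with a median of 581 per kb and a range of 27.9 to 37451 per kb. Col3a1 stood at 37451 and Col1a1, the major chain of type I collagen, at 7888 per kb. Next came Col5a1 at 3094 and Col5a2 at 802 per kb, chains of type V collagen, which helps set fibril diameter. Col1a2, the partner of Col1a1 in type I collagen, stood at 359.8 and Col5a3 at 339 per kb. Col11a2 and Col24a1 were low, at 33.0 and 27.9 per kb. Col2a1 and Col11a1, best known from cartilage, had means of 1.93 and 1.65, and Col27a1 had a mean of 3.60.

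Of the 6 type IV genes of basement membranes, 4 reached the minimum, with a median of 1258 per kb. Col4a1 and Col4a2, which form the trimer found in nearly all basement membranes, stood at 3249 and 2132 per kb, and Col4a5 followed at 384 per kb. The chains Col4a3, Col4a4 and Col4a6, known from kidney and other specialised membranes, had means of only 2.16, 17.6 and 5.15.

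Of the 27 other collagens, 15 reached the minimum, with a median of 72.5 per kb. Type VI collagen, which forms beaded microfilaments around cells, led this class, with Col6a1 at 18267, Col6a2 at 10929 and Col6a3 at 1184 per kb. Its later-described relatives Col6a4, Col6a5 and Col6a6 had means of 32.1, 5.88 and 4.93. Col18a1, the precursor of endostatin, stood at 2805 per kb, and its relative Col15a1 at 2.14 per kb. Col8a1, a short-chain network collagen, reached 793 per kb. Fibril-associated collagens were lower, and the highest of them, Col16a1, stood at 332 per kb, ahead of Col12a1 at 37.9 and Col14a1 at 11.5 per kb. Col7a1, which forms the anchoring fibrils of epithelium, stood at 143 per kb. Of the 4 transmembrane collagens, Col17a1 alone reached the minimum in this fit, with a mean of 22.8.

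Summed per kb, fibrillar genes made up 55.3% of the collagen level in the CAF and tumor cell fit, basement membrane genes 6.38% and other genes 38.3%. Col3a1 by itself gave 41.4% of the sum. Without it, an alternative added once these values were known, the fibrillar share was 23.7% and that of the other collagens 65.4%, of which the type VI genes held the greater part. The order of fibrillar and other collagens by summed level thus rested on Col3a1. By median per kb among genes over the minimum, the basement membrane class was the highest of the 3 in this fit, whereas with no minimum the fibrillar class was. The 4 type VI genes over the minimum had a median of 6057 per kb.

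Chains that share a trimer were then set side by side. Col4a1 and Col4a2 lay close, with 1.52 times as much Col4a1 per kb in the CAF and tumor cell fit, 1.27 times in the CD8 T cell fit and 1.26 times in the anti-IFNAR fit. These genes lie head to head, and the library kit does not mark strand. Reads from any overlap of their ends thus cannot be assigned by strand, and such overlap was not measured here. Col6a1 and Col6a2 were also close, with ratios of 1.67, 1.42 and 1.10, the last of which turned to 0.926 when coding length was used. Col6a3 was lower, and Col6a1 exceeded it 15.4, 8.65 and 2.65 times per kb in the same order of fits.

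Other chains of the same type lay further apart. In the CAF and tumor cell fit, Col5a1 exceeded Col5a2 3.86 times and Col5a3 9.13 times per kb. With the second gene under a mean of 10, Col4a4 exceeded Col4a3 6.87 times per kb in this fit. Under the same limit, Col8a1 exceeded Col8a2 432 times and Col4a5 exceeded Col4a6 496 times.

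Type I collagen is commonly a trimer of 2 Col1a1 chains and 1 Col1a2 chain. Col1a2 had a mean of 1924 in the CAF and tumor cell fit, where Col1a1 had 46777. Per kb, Col1a1 exceeded Col1a2 21.9 times in this fit, 8.43 times in the CD8 T cell fit and 26.0 times in the anti-IFNAR fit. Scaling by coding length gave 23.0, 8.82 and 27.2 times. Col1a2 ranked 3536 among all genes of the CAF and tumor cell fit. No cause was tested, and reads were not re-counted here. Col3a1, which needs no partner chain, exceeded Col1a1 4.75, 4.71 and 1.72 times per kb.

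**Figure D2:**
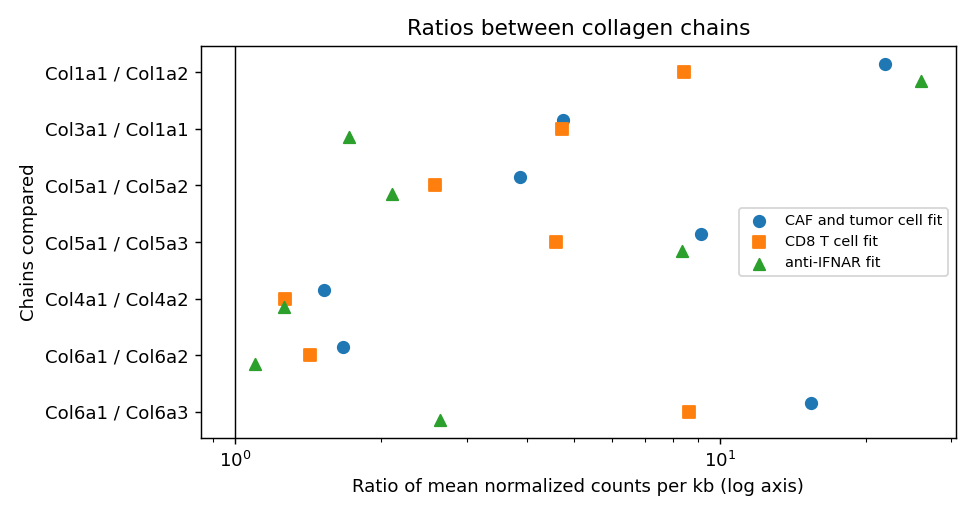
Ratio of mean normalized counts per kb between pairs of collagen chains (log axis), with a point for each fit and a line at equal levels. Col4a1 over Col4a2 and Col6a1 over Col6a2 lie between 1.10 and 1.67, while Col1a1 over Col1a2 lies between 8.43 and 26.0.

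Col3a1 and Col1a2 lay 104 times apart per kb in the CAF and tumor cell fit. This ratio rests on the low mean of Col1a2 just described, and whether reads of Col1a2 were fully assigned to it in the authors' counting was not tested. The 250 bases before their annotated starts are given, from RefSeq on GRCm38.p6, plus strand, because both encode chains of stromal fibers and their levels lay this far apart. Capitals mark matches on either strand to any of 3 promoter motifs. CCAAT was searched as the core of the box of that name. For the TATA box the letters were TATAAA. GC boxes were searched as GGGCGG. None of the matches overlapped another motif. The windows are chr1:45311288-45311537 for Col3a1 and chr6:4505368-4505617 for Col1a2.
Col3a1: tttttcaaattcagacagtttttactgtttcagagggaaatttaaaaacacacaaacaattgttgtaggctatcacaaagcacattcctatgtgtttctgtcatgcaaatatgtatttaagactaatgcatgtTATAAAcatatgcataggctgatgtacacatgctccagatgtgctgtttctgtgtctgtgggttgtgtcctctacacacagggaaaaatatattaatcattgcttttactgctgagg
Col1a2: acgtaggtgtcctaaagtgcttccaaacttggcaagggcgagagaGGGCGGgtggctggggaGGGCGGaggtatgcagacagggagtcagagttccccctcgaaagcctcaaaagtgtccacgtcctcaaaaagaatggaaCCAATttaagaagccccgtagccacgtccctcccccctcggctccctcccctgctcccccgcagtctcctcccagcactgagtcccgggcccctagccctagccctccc
The Col3a1 window held 1 TATA box match, 0 CCAAT box matches and 0 GC box matches. That of Col1a2 held 1 CCAAT box match, 2 GC box matches and 0 TATA box matches. Of 32851 RefSeq windows of the same length, 33.8% held the CCAAT box letters, 12.4% those of the TATA box and 32.7% those of the GC box, on either strand. A match is a description of these letters, and the means carry no information on the use of any site.

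Genes of collagen folding, processing, crosslinking, breakdown and uptake were described from a list of 22 (the collagen-related list). All 22 had a mean of at least 10 in the CAF and tumor cell fit. The highest per kb were Sparc, a collagen-binding matricellular protein, at 32612, Serpinh1, the collagen chaperone HSP47, at 20422, P4hb, a subunit of prolyl 4-hydroxylase, at 18461, and Pcolce, an enhancer of procollagen cleavage, at 10999 per kb. The lowest were the crosslinking enzyme Loxl2 at 7.32, the procollagen N-proteinase Adamts2 at 11.7 and the fibroblast protease Fap at 24.1 per kb. Lox, the founding lysyl oxidase, stood at 44.3 per kb, below its relative Loxl1 at 769.6 per kb.

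Collagen transcripts were also present in the libraries of the sorted CD8+ T cells. Markers of other cells were present too, such as Csf1r at a mean of 5066 in the CD8 T cell fit. Which cells the collagen transcripts came from was not tested. In the CD8 T cell fit 25 of 44 collagens (56.8%, against 27.7% of all genes) and in the anti-IFNAR fit 26 of 44 (59.1%, against 25.7%) reached a mean of 10, and 21 collagens did so in all 3 fits. The genes nearest the minimum were Col17a1 at 12.5 and Col4a4 at 9.45 in the CD8 T cell fit, and Col4a4 at 13.1 and Col9a3 at 7.93 in the anti-IFNAR fit. Col3a1 was again the highest collagen, with a mean of 4768 in the CD8 T cell fit and 2564 in the anti-IFNAR fit. The same 10 genes were the 10 highest collagens per kb in each of the 3 fits, namely Col3a1, Col1a1, Col5a1, Col5a2, Col4a1, Col4a2, Col6a1, Col6a2, Col6a3 and Col18a1.

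Within the CD8 T cell fit, the highest fibrillar genes were Col3a1 at 857, Col1a1 at 182, Col5a1 at 64.1, Col5a2 at 24.8 and Col1a2 at 21.6 per kb. Col4a1 stood at 51.2, Col4a2 at 40.5 and Col4a5 at 4.24 per kb. Among the others, Col6a1 led at 195 per kb, before Col6a2 at 137, Col18a1 at 44.3, Col6a3 at 22.5 and Col8a1 at 19.5 per kb. The order of these leaders was thus close to that in the CAF and tumor cell fit, with Col3a1 first in each.

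In the anti-IFNAR fit, Col3a1 stood at 461, Col1a1 at 268, Col5a1 at 64.8, Col5a2 at 30.8 and Col1a2 at 10.3 per kb. Col4a1, Col4a2, Col4a5 and Col4a4 stood at 33.1, 26.3, 3.59 and 1.30 per kb. Col6a1 at 123, Col6a2 at 112, Col6a3 at 46.6, Col18a1 at 20.8 and Col10a1, the collagen of hypertrophic cartilage, at 7.08 per kb led the other collagens. Fibrillar genes held 67.3% of the summed level per kb in the CD8 T cell fit and 67.2% in the anti-IFNAR fit, basement membrane genes 5.58% and 5.07%, and other genes 27.1% and 27.7%. Without Col3a1, the order turned in the CD8 T cell fit, to 35.8% for fibrillar against 53.3% for other genes, and stayed in the anti-IFNAR fit, at 48.7% against 43.4%.

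Since the fits were normalized separately, levels were set across them as a share of the summed mean of all genes, scaled so that all genes of a fit add up to 1000000 (ppm). The 44 collagens summed to 17806 ppm in the CAF and tumor cell fit, 318 in the CD8 T cell fit and 694 in the anti-IFNAR fit. The CAF and tumor cell sum was 56.1 times that of the CD8 T cell fit and 25.7 times that of the anti-IFNAR fit. For the 5 CAF markers the same ratios were 91.4 and 89.0, and for the 22 genes of the collagen-related list 6.79 and 10.2. Dcn gave 1257 of the 2158 ppm of the CAF markers in the CAF and tumor cell fit. By fit, in the order CAF and tumor cell, CD8 T cell and anti-IFNAR, Dcn stood at 1257, 9.17 and 5.71 ppm. Lum stood at 106, 0.695 and 0.494, and Ly6c1 at 249, 4.64 and 1.01 ppm. Pdgfra stood at 451, 5.94 and 12.6, and Pdpn at 95.1, 3.16 and 4.45 ppm. The CAF markers thus differed among themselves. The 22 genes of the collagen-related list also differed widely. P4hb held 727 of the list's 1424 ppm in the CD8 T cell fit, against 1907 ppm in the CAF and tumor cell fit. In the same order Serpinh1 stood at 34.0 and 1677, Pcolce at 14.1 and 1022 and Sparc at 38.8 and 2709 ppm. Ppib stood at 109 and 126 ppm, and Adamts14 was higher in the CD8 T cell fit, at 73.6 and 47.7 ppm. By class, the ratios of the CAF and tumor cell fit to the CD8 T cell fit were 47.5 for fibrillar, 65.7 for basement membrane and 78.3 for other collagens. Against the anti-IFNAR fit they were 22.1, 34.3 and 33.2, so fibrillar collagens had the lowest ratio against both and the order of the other two classes differed.

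Between the 2 fits of CD8+ T cells, the collagens summed to 2.19 times as much in the anti-IFNAR fit, while the CAF markers gave 1.03 times as much. The 3 CD8 T cell markers summed to 3701 ppm in the CD8 T cell fit and 1739 ppm in the anti-IFNAR fit, and Ptprc gave 1780 and 1162 ppm. The CD8 T cell fit pooled untreated and SCRT libraries, whereas every library of the anti-IFNAR fit was SCRT with IgG or anti-IFNAR. The CAF markers did not move together, since Pdgfra went from 5.94 to 12.6 ppm and Pdpn from 3.16 to 4.45 ppm, whereas Dcn went from 9.17 to 5.71, Ly6c1 from 4.64 to 1.01 and Lum from 0.695 to 0.494 ppm. Epithelial markers (Epcam and Krt8) summed to 13.9 ppm in the CD8 T cell fit and 31.7 ppm in the anti-IFNAR fit, 2.29 times as much, with Krt8 at 1.06 and 17.4 ppm and Epcam at 12.8 and 14.2 ppm. Macrophage markers (Adgre1 and Csf1r) gave 200.4 ppm in the CD8 T cell fit and 365 ppm in the anti-IFNAR fit, and endothelial markers (Pecam1 and Cdh5) 59.9 and 59.7 ppm. T cells and other leukocytes can express Pecam1. The part of these other cells in the collagen means was not tested.

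**Figure D3:**
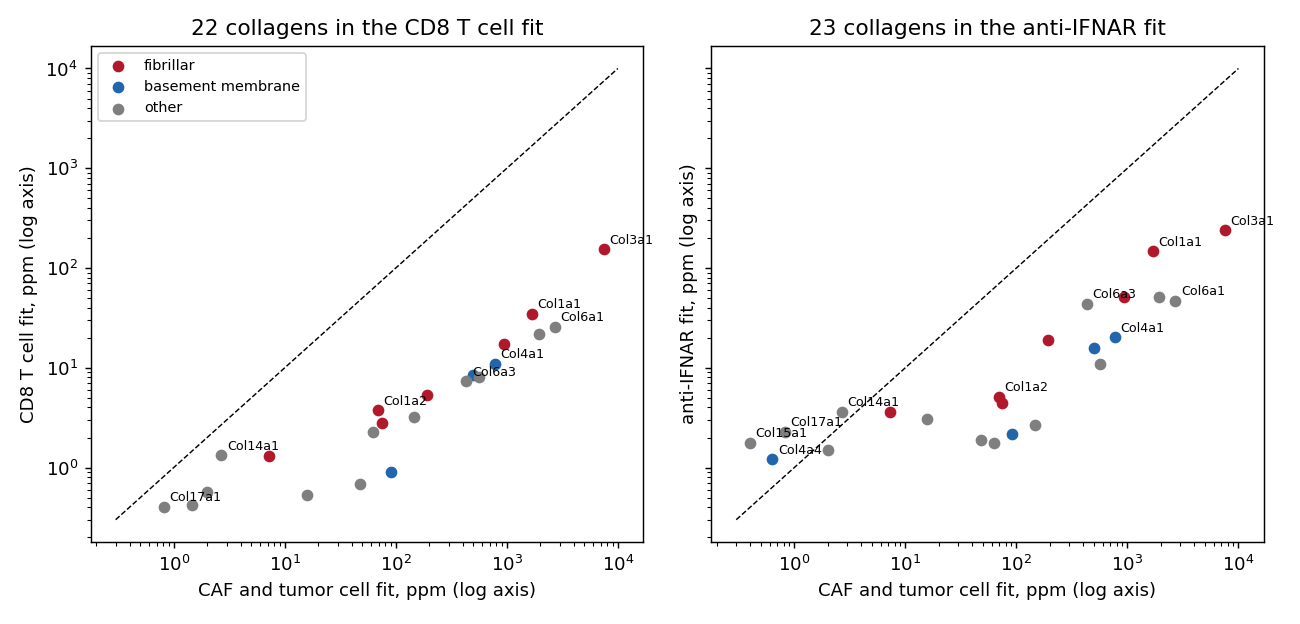
Share of the summed mean of all genes, in ppm (log axes), for collagens with a mean of at least 10 in both fits shown, with the CAF and tumor cell fit on the x axis and a CD8+ T cell fit on the y axis of each panel; the dashed line marks equal shares. In the CD8 T cell fit all 22 collagens lie below the line, and in the anti-IFNAR fit 19 of 23 do. For Col15a1, Col17a1 and Col4a4 in the anti-IFNAR fit, the minimum of 10 fixed the side of the line. By the minimum, Col23a1, Col27a1 and Col8a2 are not shown in the CD8 T cell panel, nor Col23a1, Col27a1 and Col10a1 in the other. They would lie above the line.

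Gene by gene, all 22 collagens with a mean of at least 10 in both fits had the greater share in the CAF and tumor cell fit than in the CD8 T cell fit, with a median ratio of 46.9. The ratio ran from 2.02 for Col14a1 to 105 for Col6a1. Col17a1 at 2.03, Col9a3 at 3.44, Col20a1 at 3.51 and Col11a2 at 5.53 were also at the low end. For a gene that must reach 10 in both fits, a low mean in the CAF and tumor cell fit caps the ratio. Col17a1, Col9a3, Col20a1, Col14a1 and Col11a2 had means of 22.8, 40.1, 55.7, 74.5 and 199.8 there. The minimum also left out Col28a1 and Col24a1, at 11.1 and 7.21 ppm against 0.0425 and 0.0451 ppm in the CD8 T cell fit. The range of ratios and their common direction are thus partly set by the minimum. Genes are not independent replicates, and as a description across these 22 genes the shares on a log2 scale correlated with Pearson's r of 0.921 and Spearman's rho of 0.956. Against the anti-IFNAR fit, the median ratio over 23 genes was 16.9, from 0.226 for Col15a1 to 57.6 for Col6a1, and the correlation was lower, with r of 0.842 and rho of 0.890. Of these 23, Col15a1, Col17a1, Col4a4 and Col14a1 had the greater share in the anti-IFNAR fit. At 0.208, 0.130 and 0.190 ppm in the CAF and tumor cell fit, Col23a1, Col27a1 and Col10a1 were left out by the minimum. They also had the greater share, at 3.19, 5.86 and 2.06 ppm, in the anti-IFNAR fit. The summed mean of that fit was lower, so a mean of 10 is a greater share there. In the CAF and tumor cell fit Col15a1, Col17a1 and Col4a4 stood at 0.400, 0.823 and 0.635 ppm. These shares are under that minimum share, so the minimum fixed the direction for Col15a1, Col17a1 and Col4a4, the lowest ratio included.

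A few collagens reached the minimum only in fits of the CD8+ T cell libraries. Col23a1, a transmembrane collagen, had means of 46.6 in the CD8 T cell fit and 34.4 in the anti-IFNAR fit, against 5.76 in the CAF and tumor cell fit. Col27a1, a fibrillar collagen, had means of 34.2 and 63.0 in the T cell fits against 3.60. Col8a2 reached 39.4 in the CD8 T cell fit, against 5.01 in the anti-IFNAR fit and 7.95 in the CAF and tumor cell fit. By share, Col8a2 was higher in the anti-IFNAR fit, at 0.466 ppm, than in the CAF and tumor cell fit, at 0.287 ppm. Fits were scaled separately, so a mean of 10 is a different share in each fit. Reaching the minimum is thus not a like comparison between fits. Col10a1 reached 22.2 in the anti-IFNAR fit, against 6.64 and 5.26 in the others. As shares of all genes, Col23a1 stood at 1.51 and 3.19 ppm in the T cell fits against 0.208 ppm in the CAF and tumor cell fit, and Col27a1 at 1.11 and 5.86 against 0.130 ppm. Conversely, Col24a1, Col28a1 and Col6a4 reached the minimum in the CAF and tumor cell fit alone, with means of 199.6, 307 and 32.1. Without values per library, it cannot be said whether such a mean comes from many libraries or from few.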

How the data were processed

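Per the labels, sorted cells were lysed, 1 ng of total RNA was preamplified with a SMARTer Ultra Low Input kit, libraries were made with NexteraXT, and about 25 M single-end reads of 100 nt were collected per sample. The submitters' processing notes name fastp 0.20.1, STAR 2.7.6a, DESeq2 1.28.1, R 4.0.2 and the build mm39. The counting tool and annotation are not given in the sources used here. The authors deposited 10 tables, each with a signal column, the mean normalized count (read counts divided by size factors and averaged over the libraries of a fit), and 4 columns of their own comparisons (fold changes on a log2 scale, test statistics, and p-values before and after adjustment), which were not used. The mean was identical, to the decimals given, in the 6 CAF and tumor cell tables and in the 3 CD8 T cell tables. With values of single samples not used here, library depth and the precision it gives are unknown, and no test between groups was run.

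Levels were computed in Python 3.11.15 with pandas 2.3.3 and scipy 1.17.1. Lengths were those of the longest transcript in GENCODE M21 (GRCm38, which is not the build of the files), found for 44 of 44 genes, and coding length was the alternative. Promoter windows were held for 35 of the 44 genes. The code for class shares and motif matches was checked on simulated data, which is no test of the shares themselves. Classes, lists and members were chosen with earlier results of these data known. All members over a mean of 10 were counted, and the 5 highest of each class in each fit were to be named, with others named after their values were seen. All listed genes of the collagen-related and marker lists were measured.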

Additional observations from a re-analysis of the deposited data

How the results depend on the processing

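No paired analysis was possible because the result comes from no test and the tables hold no value per sample, and for the same reason no replicate could be left out and no other normalization was run. With no spread to measure against, a value was taken as moved when it changed by over 1.5 times. With no minimum, all 44 collagens counted in each fit, and with a minimum of 50 the count was 14 in the CD8 T cell fit and 12 in the anti-IFNAR fit. Medians per kb moved most with the minimum. With none, they were 339, 193 and 4.08 for fibrillar, basement membrane and other collagens in the CAF and tumor cell fit, 14.0, 2.59 and 2.12 in the CD8 T cell fit, and 8.28, 2.45 and 2.60 in the anti-IFNAR fit. Fibrillar genes then had the highest median in each fit. With a minimum of 50 they moved to 2132 for basement membrane and 332 for other collagens in the CAF and tumor cell fit, to 44.4 for fibrillar and 33.4 for other collagens in the CD8 T cell fit, and to 47.8, 29.7 and 79.3 in the anti-IFNAR fit. Coding length moved the median of other collagens to 16.8 in the CD8 T cell fit and 9.04 in the anti-IFNAR fit. Shares of the summed level moved only when Col3a1 was left out, an alternative added once these values were known, to 23.7%, 10.9% and 65.4% for fibrillar, basement membrane and other collagens in the CAF and tumor cell fit, 35.8%, 11.0% and 53.3% in the CD8 T cell fit, and 7.92% and 43.4% for basement membrane and other collagens in the anti-IFNAR fit. The unscaled means, also chosen afterwards, left all 9 shares within 1.5 times.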
